A study of Aspergillus nidulans with 6 samples.

Results

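In Aspergillus nidulans, a filamentous fungus, 59 of 10720 nuclear genes had no read in any of 3 WT libraries and at least 3 reads in each of 3 libraries from a strain lacking mcrA. These 59 genes, 0.550% of the nuclear genes with an AN locus number, are described here as genes silent in WT and on after deletion. They were chosen by their raw counts alone (0 in all WT libraries and a minimum of 3 in every mcrA-deleted library, with no other filter), so their difference between the genotypes is what selected them and is described without a test.

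WT was strain LO1362 (genotype mcrA+) and the deleted strain was LO8158 (genotype mcrA-), with 3 libraries of polyadenylated RNA each. Both were grown from 1000000 spores in 150 ml of liquid glucose minimal medium with uridine, uracil, pyridoxine and riboflavin, for 1 day at 37 °C. The same supplements were used for both strains, and other alleles of the strains are not named in the sources used here. Each genotype is 1 strain, so the deletion and any other difference between the strains, including a locus missing from the WT strain, cannot be told apart. The labels do not say whether replicates were separate cultures, and any p-value measures only library-to-library spread, which may be technical.

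The product of mcrA is known to hold down many secondary metabolite genes of A. nidulans. Genes for fungal secondary metabolites usually lie side by side in clusters, each with a backbone enzyme (a polyketide synthase, peptide synthetase or terpene enzyme) that builds the core of the molecule and with tailoring enzymes, transporters and regulators around it. Such clusters are often silent in laboratory cultures and lie often towards chromosome ends.

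The mcrA locus itself, AN8694 from background knowledge (chromosome III, 3100552 to 3102696), had 674, 903 and 655 counts in WT and 280, 422 and 273 in the libraries labelled mcrA-deleted. The feature thus separated the labelled genotypes but held reads in every mcrA-deleted library. How much of the gene the deletion removed is not stated. The WT libraries were deeper as a group, with 15588430 counts together against 12720519 in the mcrA-deleted libraries. Single libraries held 3374534 (mcrA-deleted replicate 1) to 6051839 counts (WT replicate 2). With 4926520 counts, mcrA-deleted replicate 2 was deeper than WT replicates 1 and 3 (4739323 and 4797268). The mitochondrial share of counts was 1.06% in mcrA-deleted replicate 1 and at most 0.159% elsewhere. A count of 0 over the WT group allows up to 3 counts, or 0.203 CPM (reads per 1000000 counts, on library sizes scaled by trimmed means), which covers counting error only.

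A count of 0 in WT was common, and meeting the full rule was not. Of the 10720 genes, 1668 had 0 counts in all WT libraries, and 1160 of these also had 0 in all mcrA-deleted libraries. A further 449 had some mcrA-deleted counts without meeting the rule, which leaves the 59, or 3.54% of the genes silent in WT. The mirrored rule, 0 in all mcrA-deleted libraries and at least 3 in every WT library, was met by 2 genes, AN1881 with 4, 5 and 3 WT counts and AN2392 with 53, 52 and 40.

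The 59 genes came on at low levels. Their summed mcrA-deleted counts ran from 10 to 345 with a median of 46, and their mean levels from 0.753 to 24.9 CPM with a median of 3.19 CPM. The median over the 7839 AN genes with enough counts to be tested was 37.6 CPM in the same libraries, a filter that 42 of the 59 did not pass. Of all 9421 AN genes with a mcrA-deleted count, 80.7% had a mean CPM above the median of the 59 and 51.7% above their highest. Per kilobase of annotated feature, the median was 2.05 CPM for the 59 genes and 19.4 CPM for the tested genes. As bounds against the 3 counts that a silent WT group allows, pooled levels were 3.64-fold to 125.7-fold higher, with a median of 16.8-fold. Counting error in the mcrA-deleted libraries and spread between libraries are not in these bounds. Without WT replicate 2, the deepest library, these bounds ran from 2.15-fold to 74.2-fold with a median of 9.89-fold, and without mcrA-deleted replicate 3 the median was 9.13-fold.

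**Figure D1:**
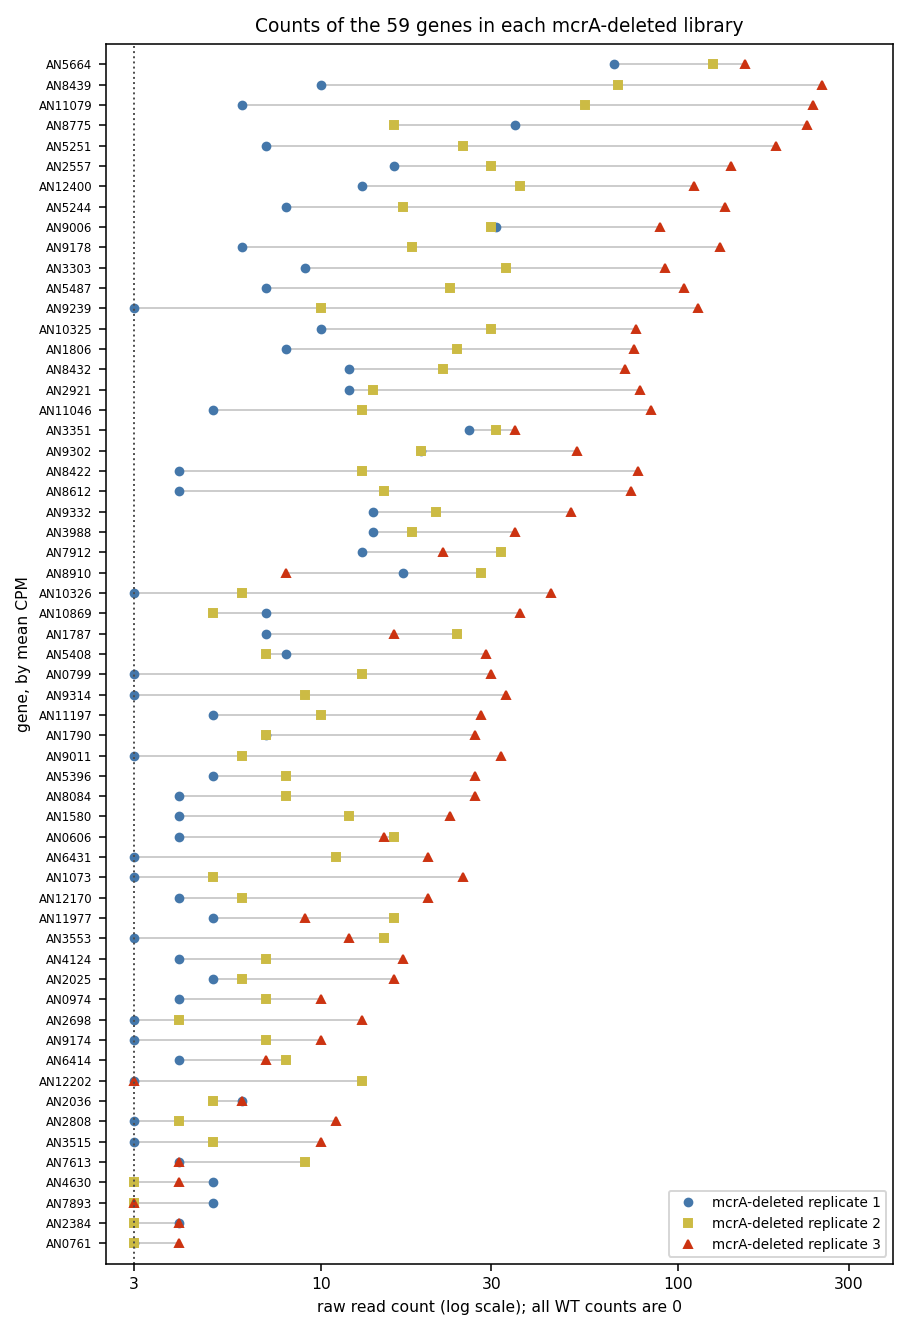
Raw read counts (log scale) of the 59 genes in mcrA-deleted replicates 1 to 3, ordered by mean CPM; each symbol is 1 library, the grey line spans the 3 libraries, the dotted line marks the minimum of 3 counts, and all WT counts are 0. Replicate 3 lies far to the right for most genes in the upper part, while the 3 counts of AN3351 lie close together.

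The highest gene, AN5664 (chromosome V, 2042280 to 2043637, plus strand), had 66, 125 and 154 counts in mcrA-deleted replicates 1 to 3, or 24.9 ± 6.34 CPM (SD, n = 3). Its bound was 125.7-fold, or 74.2-fold without WT replicate 2. AN5664 was well above 0 in every mcrA-deleted library. AN8439 (chromosome V, 485526 to 486710) had 10, 68 and 253 counts, and the gene next to it, AN11079 (487982 to 489082), had 6, 55 and 238. AN8775 (chromosome III, 2845899 to 2847574) had 35, 16 and 229 counts. These 3 genes owed most of their counts to replicate 3. The bounds of AN8439, AN11079 and AN8775 were 120.6, 108.9 and 102.0-fold with all libraries, 44.5, 34.8 and 29.1-fold without mcrA-deleted replicate 3, and 71.2, 64.3 and 60.2-fold without WT replicate 2.

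A small number of genes stood at an even level across the mcrA-deleted libraries. AN3351 (chromosome VI, 1000316 to 1002291) was the most even, with 26, 31 and 35 counts and 6.87 ± 0.738 CPM (SD, n = 3). AN7912 had 13, 32 and 22 counts. In 8 of the 59 genes, AN5664, AN3351 and AN7912 among them, the highest CPM was at most 2 times the lowest. AN3988 (chromosome II, 2411692 to 2416226), with 14, 18 and 35 counts, lay just above that, at 2.04 times. Others of the 8 stood near the minimum of 3 counts, such as AN0761 (3, 3 and 4) and AN2384 (4, 3 and 4). At such counts this ratio says little about an even level.

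Replicate 3 carried most of the signal of the group. Summed over the 59 genes, the mcrA-deleted libraries held 515, 1037 and 3291 counts, which is 147, 202 and 673 CPM. In 44 genes the highest CPM was in replicate 3, in 9 in replicate 2 and in 6 in replicate 1; with library size alone the numbers were 47, 8 and 4. In 41 genes replicate 3 held over 50% of the counts, up to 89.8% in AN9239. The spread was wide: the highest CPM was a median of 4.05 times the lowest, and at least 5 times in 23 genes, although at such counts part of this is counting error. Replicate 3 also had the highest CPM in 63.8% of the 1244 other genes called higher and in 35.9% of all tested AN genes. Leaving out a library can only add genes to the rule: 60 met it without mcrA-deleted replicate 3, 105 without mcrA-deleted replicate 1, the shallowest, and 100 without WT replicate 3.

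**Figure D2:**
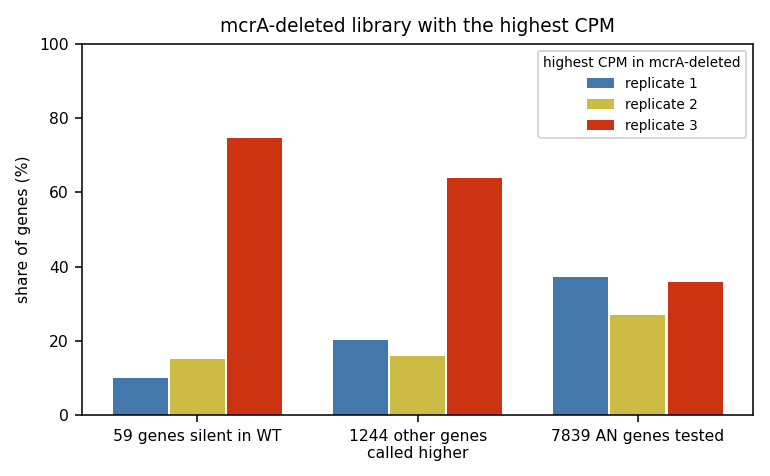
Share of genes (%) whose highest CPM among the mcrA-deleted libraries was in replicate 1, 2 or 3, for the 59 genes silent in WT, the 1244 other genes called higher, and all 7839 tested AN genes. Replicate 3 leads in 74.6% of the 59 genes and in 35.9% of all tested genes.

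Just inside the rule stood AN0761 with 3, 3 and 4 counts, AN2384 with 4, 3 and 4, AN7893 with 5, 3 and 3, and AN4630 with 5, 3 and 4. Among the genes silent in WT that missed it, the largest counts were those of AN5430 (0, 0 and 71), AN0338 (0, 2 and 63), AN5397 (2, 22 and 37) and AN11215 (2, 7 and 37). In 14 of the 59 genes replicate 1 stood at the minimum of 3. The limit of 3 thus kept out genes with larger sums than many it let in, where replicate 1 had fewer reads.

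In edgeR's quasi-likelihood test over all 7852 features, 16.1% of features were called higher after deletion and 13.7% lower, at a Benjamini-Hochberg adjusted p under 0.05. Of the 59 genes, 17 had enough counts to be tested and 17 were called higher, which the selection on the same counts fixes, so nothing is read from it. The call was lost without WT replicate 1 in AN5244, without WT replicate 2 in AN8775, AN8439 and AN5244, and without mcrA-deleted replicate 2 in AN8439.

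The 59 genes lay on all 8 chromosomes. Chromosome VII held 13, II and V 10 each, VIII 9, VI 8, III 4, I 3 and IV 2. As a share of the AN genes of the chromosome, this ran from 0.199% on IV to 0.898% on V. There were 32 genes on the plus strand and 27 on the minus strand, and the median feature length was 1667 bases against 1682 for all AN genes. In the RefSeq table of assembly ASM1142v1, 55 of the 59 had an entry and 0 had a symbol, so most are given here by locus number only.

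The share of these genes near chromosome ends depended on the distance taken. Ends were taken as the first base of the chromosome's coordinates and the last base of an AN gene. Within 300 kb of an end stood 21 of the 59, or 35.6%, against 15.6% of all AN genes and 36.1% of the 1609 other genes silent in WT. Within 100 kb there were 4 of the 59 (6.78%), closer to the 4.67% of all AN genes than to the 14.3% of the other silent genes. Within 50 kb there were 3 genes, AN9239, AN5251 and AN10869 (5.08%, against 2.21% and 7.46%). AN10869 on chromosome I had 7, 5 and 36 counts.

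**Figure D3:**
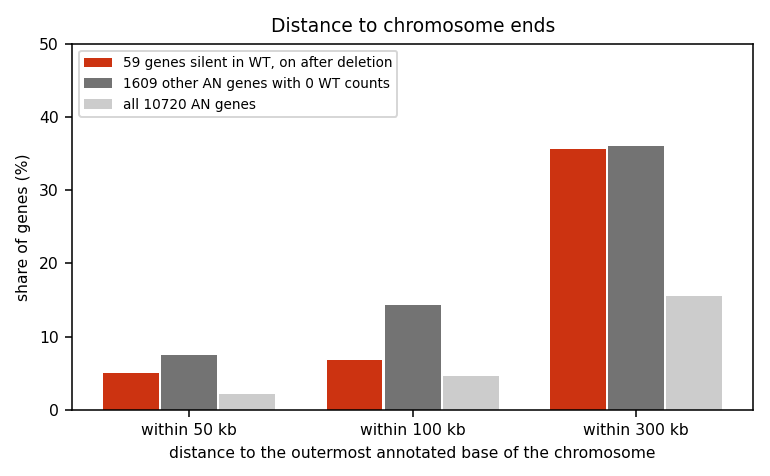
Share of genes (%) within 50, 100 and 300 kb of a chromosome end, for the 59 genes, the 1609 other AN genes with 0 WT counts, and all 10720 AN genes. Ends are the first base of the coordinates and the last base of an AN gene. At 300 kb the 59 genes (35.6%) stand beside the other silent genes (36.1%), both above all genes (15.6%), and at 100 kb (6.78%) they lie below them (14.3%).

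The outermost of the 59 genes on chromosomes V and VIII may not be independent of each other. AN9239 (chromosome VIII, 12910 to 13963) had 3, 10 and 114 counts and AN5251 (chromosome V, 3378057 to 3379614) had 7, 25 and 188. Both had most of their counts in replicate 3. Beside them lie AN9240 (VIII, 14517 to 15575) and AN5252 (V, 3376952 to 3378010), each 1059 bases long, and these had the same counts in all 6 libraries: 26, 45 and 26 in WT and 61, 91 and 205 in mcrA-deleted. Among the 7478 features with 100 or more counts, no other features shared all 6 counts. How reads with several matches were counted is not stated, and whether AN9239 and AN5251 share reads was not tested.

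Overlap with other genes was at the general level, 11 of the 59 (18.6%) against 17.9% of all AN genes, and in each of the 11 the partner lay on the opposite strand. Libraries were strand-specific, but use of strand in counting is not stated, and the part of partner reads in these counts was not tested. AN11977 (chromosome III, 1181861 to 1183278) lies wholly within AN4722. AN11977 had 0 counts in WT, where AN4722 had 312, 721 and 1095. In mcrA-deleted, AN11977 had 5, 16 and 9 counts and AN4722 had 4193, 7512 and 8622. The 30 counts of AN11977 are 0.148% of those of its partner, and 0 counts in WT allow up to 0.141%. The part of AN4722 reads in the counts of AN11977 was not tested. The other 10 shared from 2 bases (AN8432) to 272 bases (AN2557) with their partners.

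Of genes in the secondary metabolism lists, 5 of 193 were among the 59 (2.59%, against 0.550% of all AN genes). The rule takes only genes silent in WT, which were 83 of the 193 and 1668 of all 10720. Among these silent genes, 5 of the 83 listed ones met the rule, against 59 of all 1668 (3.54%). AN8910 (chromosome VII, 481247 to 489372), listed as a polyketide synthase, had 17, 28 and 8 counts and was 1 of 3 genes lowest in replicate 3 by CPM. AN6431 (chromosome I, 206271 to 214310), also listed as a polyketide synthase, had 3, 11 and 20. AN9314 (chromosome VIII), from the list of prenyltransferase and terpene genes, had 3, 9 and 33.

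The other listed genes belong to named clusters on chromosome II. AN7912 (217123 to 218809), of the orsellinic acid cluster, stood at 4.81 ± 1.29 CPM. Its 4 fellow members in the files had WT and mcrA-deleted sums of 3 and 34 (AN7909, the polyketide synthase), 0 and 6 (AN7911), 220 and 241 (AN7913) and 70 and 297 (AN7914), where AN7909 and AN7911 had too few counts for the test and AN7913 and AN7914 did not pass. AN7893 (163599 to 164864), of the benzaldehyde derivative (dba) cluster, had the few reads given above. In that cluster AN7895 (7, 0 and 10 against 35, 35 and 59 counts) and AN7896 (1, 1 and 4 against 24, 15 and 20) were called higher, AN7895 not in 4 of the 6 fits lacking 1 library. The remaining 8 dba genes in the files had too few counts for the test.

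Over the lists as a whole, 20 of 46 tested cluster genes were called higher, 1 lower and 25 did not pass, with a median log2 fold change of 2.93. Of 30 tested backbone enzymes 14 were called higher, 2 lower and 14 did not pass, with a median of 1.39. Over all tested features 16.1% were higher and 13.7% lower, with a median of 0.0021. The 2 kinds of list share members. A gene silent in WT enters the test only through its mcrA-deleted counts, so these tested members lean towards rises.

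Beyond the lists, 13 of the 59 genes (22.0%) were listed themselves or stood within 5 genes of a listed gene, against 7.46% of all AN genes. The share among the other genes silent in WT, the closer comparison, was not taken. The listed gene nearby was called higher at some of these loci and not at others. AN9006 (chromosome VII, 150946 to 151831), with 31, 30 and 89 counts, adjoins AN9005, listed as a polyketide synthase, which went from 3, 6 and 10 WT counts to 53, 58 and 192 and was called higher. AN2921 (chromosome VI, 2389992 to 2391506), with 12, 14 and 78 counts, stands 3 genes from the peptide synthetase AN2924, which had 11 WT and 1342 mcrA-deleted counts. AN2922 and AN2923 between them did not pass. Of other listed genes so near, AN2032 by AN2036 (36 WT and 95 mcrA-deleted counts) was called higher. AN0607 by AN0606 (795 and 942) and AN9243 by AN9239 (33 and 59) did not pass. AN1784 by AN1787 (2 and 4) and AN2035 by AN2036 (10 and 16) had too few counts for the test. AN10325 lies past the end of the emericellamide genes and is described below with its neighbours.

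Genes beside the 59 were often called higher too. Within 2 genes on either side stood 224 genes that were not among the 59. Of the 111 that could be tested, 47 were called higher (42.3%), 12 lower (10.8%) and 52 did not pass. Over all features tested, 16.1% were higher and 13.7% lower, and beside genes with 0 counts in all 6 libraries, away from the 59, 296 of 1392 tested genes were higher (21.3%). AN5252 and AN9240, with the same counts, are both among the 47. Leaving out the neighbours that overlap one of the 59 gave 45 of 106 (42.5%). With no count filter, 58 of 187 neighbours (31.0%) and 13.3% of all features were higher. When 1 library was left out, 30.3% to 46.0% of tested neighbours were called higher, against 9.47% to 18.6% of all features. The 59 genes and their neighbours were measured in the same libraries, so the 2 sets of counts are not independent.

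The share fell with distance. It was 46.3% (25 of 54) for the nearest gene, 38.6% at the second, 34.0% at the third and 31.6% at the fourth, and lay between 17.2% and 24.1% from the fifth to the tenth. Genes more than 10 places away had 15.1%. The share called lower ran from 7.02% to 21.8% over the same places, with 13.8% farther away. At least 1 neighbour was called higher for 36 of the 59 genes and lower for 9.

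**Figure D4:**
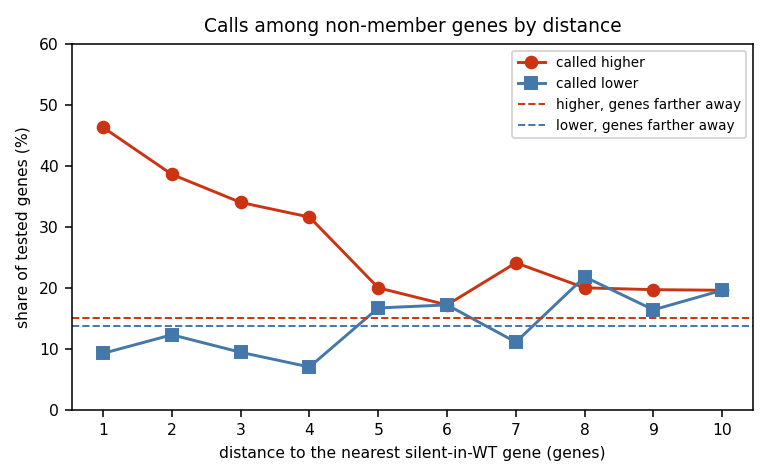
Share (%) of tested genes called higher (red) or lower (blue) against their distance, in genes, to the nearest of the 59; dashed lines show genes more than 10 places away. The share higher falls from 46.3% at the nearest gene to 31.6% at the fourth, against 15.1% far away.

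Most of the 59 stood apart from each other. Counting genes at most 5 places apart as neighbours, 45 stood alone and 14 fell into 6 neighbourhoods of 2 or 3, and only AN8439 and AN11079 were direct neighbours. In these 6 neighbourhoods 11 of 16 tested genes beside them were called higher and 0 lower; beside the lone genes it was 36 and 12 of 95.

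**Figure D5:**
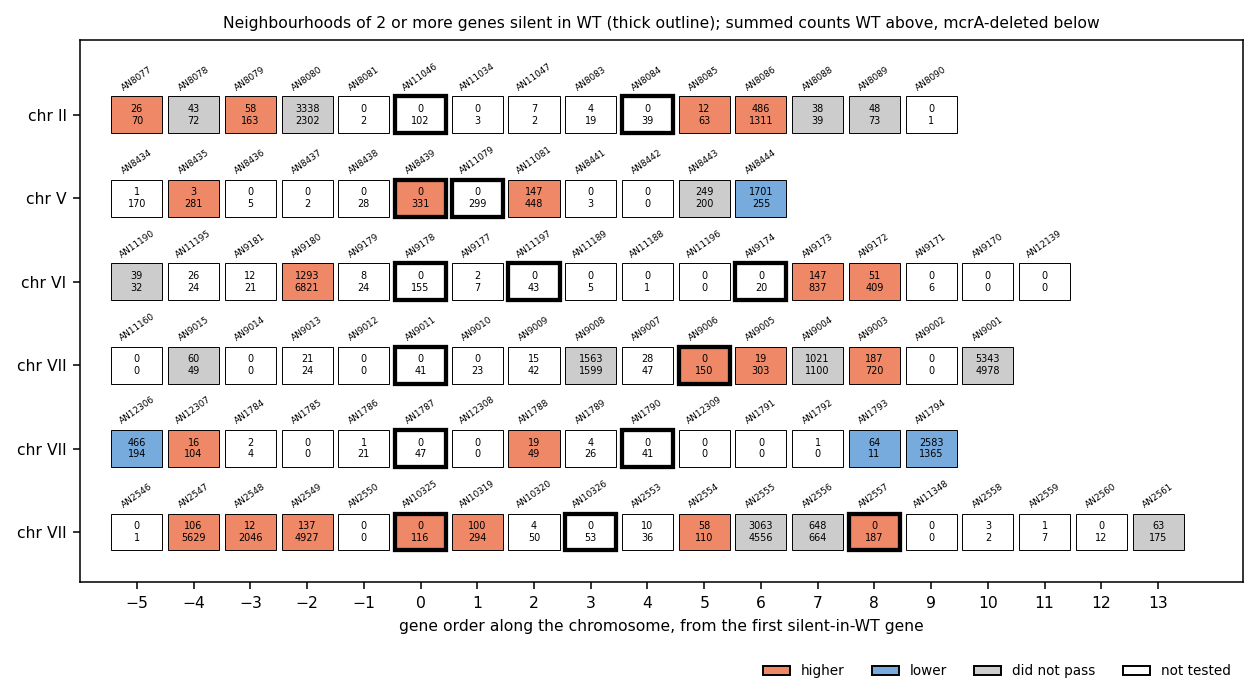
Gene order (1 box a gene) in the 6 neighbourhoods that hold 2 or more of the 59 genes (thick outline), with summed WT counts above summed mcrA-deleted counts and colour for the edgeR call. The neighbourhood at the bottom holds AN2547 to AN2549 of the emericellamide cluster, called higher, on the left of AN10325.

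On chromosome VII, AN10325 (4331753 to 4334216), AN10326 (4339838 to 4340374) and AN2557 (4351823 to 4353962) lie beyond the emericellamide gene AN2549. AN10325 had 10, 30 and 76 counts. AN10326 had 3, 6 and 44. AN2557 had 16, 30 and 141, and it shares 272 bases with AN2556, which had 648 WT and 664 mcrA-deleted counts. All 3 were highest in replicate 3. AN2549 went from 9, 48 and 80 WT counts to 1200, 1740 and 1987. Of the genes between, AN10319 rose by 1.64 on the log2 scale (SE 0.236; adjusted p = 0.0034 in edgeR's quasi-likelihood test) and kept its call in each fit without 1 library. AN2554 was called higher with all libraries and in none of those 6 fits.

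On chromosome VI, AN9178 (184170 to 188863), AN11197 (190511 to 193249) and AN9174 (199408 to 201347) span 17.2 kb. AN9178 had 6, 18 and 131 counts, AN11197 had 5, 10 and 28, and AN9174 had 3, 7 and 10. The genes between them had 0 to 7 counts in each group. On the flanks AN9180 rose by 2.48 (SE 0.189; adjusted p = 0.000566, quasi-likelihood test), from 394, 484 and 415 to 1441, 2470 and 2910 counts. AN9173 went from 27, 95 and 25 to 103, 435 and 299 and AN9172 from 11, 30 and 10 to 27, 111 and 271. Both were called higher, AN9172 not without WT replicate 1.

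On chromosome V, AN8439 and AN11079 are followed by AN11081, which rose by 1.69 (SE 0.249; adjusted p = 0.00371, quasi-likelihood test). Before them stands AN8438, which shares 162 bases with AN8439 and had 0, 1 and 27 mcrA-deleted counts. Further back lies AN8432 (464892 to 466946), with 12, 22 and 71 counts. It adjoins AN8433, which had 0, 3 and 0 WT counts against 558, 815 and 2662. The levels of AN8432, AN8433, AN8439 and AN11079 were all highest in replicate 3.

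On chromosome II, AN11046 (693102 to 694335) had 5, 13 and 84 counts and AN8084 (700871 to 702966) had 4, 8 and 27. Beside AN8084, AN8086 rose by 1.57 (SE 0.173; adjusted p = 0.00159, quasi-likelihood test), and AN8085 (1, 3 and 8 against 15, 20 and 28 counts) was called with all libraries but not in 4 of the 6 fits without 1. The genes between AN11046 and AN8084 had at most 19 counts in a group.

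On chromosome VII, AN9011 (135541 to 137862) had 3, 6 and 32 counts and stands 5 genes from AN9006. The gene fphA (AN9008), which encodes a phytochrome, a red light receptor, lies between them and did not pass (log2 fold change 0.18, SE 0.154). Farther along, AN1787 (1880795 to 1882412) had 7, 24 and 16 counts and AN1790 (1894600 to 1896807) had 7, 7 and 27. Between that pair AN1788 was called higher with all libraries but not in 4 of the 6 fits without 1.

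Several lone genes stood next to genes with large gains; the neighbours in this paragraph were chosen after their values were seen. AN5664 adjoins AN5665, which had 0, 1 and 3 WT counts and 185, 197 and 305 mcrA-deleted counts. AN8612 (chromosome III, 3370754 to 3372193; 4, 15 and 74 counts) adjoins AN8611, with 0, 2 and 2 against 17, 95 and 374. AN3303 (chromosome VI; 9, 33 and 92 counts) adjoins AN3304, with 0, 0 and 2 against 35, 58 and 102. AN12400 (chromosome IV, 487614 to 488635; 13, 36 and 111 counts) lies within a run of rising genes. AN7267, AN7266, AN7265 and AN7264 around it had 6, 12, 6 and 24 WT counts and 620, 918, 487 and 1235 mcrA-deleted counts, and AN7265 shares 80 bases with it. Of the WT counts of these 4 genes, WT replicate 3 held 5, 12, 5 and 18. All 7 of these neighbours were called higher, also in each fit that left out 1 library.

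AN0974 (chromosome VIII, 1923864 to 1924582) had 4, 7 and 10 counts and adjoins brlA (AN0973), the transcription factor that starts conidiation, the forming of asexual spores. The brlA feature had 1, 2 and 2 WT counts and 12, 28 and 56 mcrA-deleted counts, or 0.344 ± 0.134 against 6.78 ± 4.17 CPM (log2 fold change 4.24, SE 0.647; adjusted p = 0.00409, quasi-likelihood test). Without mcrA-deleted replicate 3 its value was 3.63.

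Not all neighbours moved upwards. AN9302 (chromosome VIII, 226194 to 228490) had 19, 19 and 52 counts, while AN9303 and AN9304 beside it fell by 2.45 (SE 0.351; adjusted p = 0.0034) and 2.36 (SE 0.354; adjusted p = 0.00387) on the log2 scale in the quasi-likelihood test, in each fit that left out 1 library too. AN9303 went from 1305, 1685 and 1470 to 237, 377 and 135 counts. On its other side AN11210 went from 4, 2 and 9 to 32, 120 and 341 and was called higher. AN1580 (chromosome VII; 4, 12 and 23 counts) stands beside AN1579, which fell from 34, 38 and 18 to 6, 8 and 7 counts.

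AN5244, AN5487 and AN1806 complete the 20 genes with the highest mean CPM. AN5244 (chromosome V, 1611105 to 1612527) had 8, 17 and 135 counts. AN5487 (chromosome V, 2648056 to 2649722) had 7, 23 and 104 counts, beside AN5488, which rose by 1.97 (SE 0.257; adjusted p = 0.00258, quasi-likelihood test). AN1806 (chromosome VII, 1949510 to 1952454) had 8, 24 and 75 counts, beside AN1805 and AN1804, both called lower with all libraries. AN1805 lost its call in 4 of the 6 fits without 1 library and AN1804 without WT replicate 2. In each of these 3 genes the order of the libraries was the same, with replicate 3 highest.

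The 18 genes whose own counts are not yet given mostly had few reads. AN8422 (chromosome V) had 4, 13 and 77 counts and AN9332 (chromosome VIII) 14, 21 and 50. The other 16 had summed counts from 17 to 46, and in 10 of them replicate 3 was the highest library by CPM. The others included AN12202 (chromosome II), with 3, 13 and 3 counts, and AN2036 (chromosome VII), with 6, 5 and 6. AN2036 lies within 5 genes of the listed polyketide synthases AN2032, called higher, and AN2035, with too few counts for the test. The last of these 16 with a listed gene so near was AN0606 (chromosome VIII; 4, 16 and 15 counts), beside the peptide synthetase AN0607, which did not pass. These genes were singled out after their values were seen.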

How the data were processed

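Polyadenylated RNA of 6 samples (3 per strain) was sequenced on a MiSeq from a directional library kit, per the labels' protocols. The deposited files hold raw read counts per annotated feature, with feature coordinates, per the file headers. CASAVA and HISAT (version 1) are named in the submitters' processing notes; the sources used here do not state the counting program, its use of strand or the annotation release. Library totals ran from 3374534 to 6051839 counts, and intervals or floors cover counting error only. All 6 files were mapped to samples by their labels, and 0 columns were left unmapped.

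The 59 genes were found by the count rule. The genes, lists and tests were chosen with earlier results of these data known. Features passing edgeR's expression filter (minimum count 10) were tested with edgeR 4.0.16 (quasi-likelihood, TMM scaling, limma 3.58.1, R 4.3.3), with Benjamini-Hochberg adjustment at 0.05 over all 7852 features. The procedure was tested on simulated data, in which the genes set to change had more counts than most of the 59. That check thus does not cover such low counts. The SE given with a log2 fold change is its absolute value divided by the square root of the F statistic of the quasi-likelihood test. CPM used TMM-scaled library sizes. Neighbours were counted in order of AN features. RefSeq assembly ASM1142v1 served for names only, and coordinates are those of the files.

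Genes were named by rule: the 20 highest by CPM, those in shared neighbourhoods or in a list, those nearest the limit of 3 counts, and at most 3 called neighbours per shared neighbourhood. Others named were chosen after their values were seen. The secondary metabolism lists were written from background knowledge. Alternatives were other count limits, library size scaling, DESeq2 1.42.0, no filter, thinning to equal depth, a replicate term, other neighbour distances and leaving out each library; leaving out overlapping neighbours was chosen after seeing the data.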

Additional observations from a re-analysis of the deposited data

How the results depend on the processing

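The number of genes meeting the rule followed its limits by construction: 133 at a minimum of 1 count, 32 at 5, 14 at 10, and 92 with up to 1 count allowed over WT. Thinned to equal depth 63 genes met it, of which 51 were among the 59. Without 1 library 60 to 105 met it, a number that can only grow. Of the 59 genes, 17 were called higher, 56 with DESeq2 and 59 with no filter, where more genes were tested; without 1 library the number was 17 to 32. After thinning it was 14, since AN5244, AN3303 and AN1806 had too few counts left for the test. Neighbours called higher numbered 25 with 1 gene on each side, 95 with 5, and 37 to 57 without 1 library. Neighbourhoods numbered 2 with genes at most 2 places apart and 7 at 10. Over all features 1265 were higher and 1078 lower; with library size alone these were 1650 and 640, and without 1 library 758 to 1496 and 618 to 1171. The cause of these last shifts was not tested. For the 20 genes with the highest CPM, the bounds were lower without WT replicate 2, the deepest library, as a floor of 3 counts over fewer reads requires. Depth limits what 0 means: the WT libraries together allow 0.203 CPM.

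Whether replicate numbers pair the samples cannot be told from these values. Deviations of same-numbered samples correlated at 0.264, -0.0694 and 0.175, and those of differently numbered samples at -0.268 to 0.124. With the replicate number as a block, 17 of the 59 genes, 49 neighbours and 1333 features were called higher and 1170 features lower.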
